A study of Homo sapiens with 15 samples.

Results

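Cytochrome P450 genes were read in a human liver tumour line treated with chlorinated flame retardants. They were taken by symbol, as every gene named CYP, a family number, a subfamily letter and a gene number, which leaves out pseudogenes. CYP51A1, a gene of cholesterol synthesis, was not counted among them. The rule found 54 of the 57773 genes listed, and it used no measured value.

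The cells were HepG2, an established hepatocellular carcinoma line kept under 25 passages, and RNA was taken after 72 h of exposure. The 5 groups were TCEP (tris(2-chloroethyl) phosphate) at 25 µM, TCEP at 250 µM, TCIPP (tris(2-chloroisopropyl) phosphate) at 2.5 µM, TCIPP at 25 µM, and a control with 0.1% DMSO and no compound. TCIPP differs from TCEP by an extra methyl group on each chloroalkyl arm. Each group had 3 libraries, from cultures that were seeded, treated and extracted separately per the labels' protocols, all of 1 cell line. The design compares each exposure with DMSO, the higher with the lower concentration of each compound, and the compounds with each other at 25 µM.

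Cytochrome P450 enzymes are heme proteins that insert an oxygen atom into their substrate, using electrons passed on by a reductase. In the liver, members of families 1, 2 and 3 oxidize drugs and other foreign compounds, and their genes can be switched on by ligand-sensing receptors such as the aryl hydrocarbon receptor (AHR), the pregnane X receptor (NR1I2) and the constitutive androstane receptor (NR1I3). Other members make or break down bile acids, steroid hormones, fatty acid signals, retinoic acid and vitamin D, and a few have no settled substrate.

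The promoters of 5 members are shown because they belong to genes known to be controlled by AHR (CYP1A1 and CYP2S1) or by nuclear receptors (the CYP3A genes), whose values are described further on. Each run is the 250 bases before the transcription start given by RefSeq, on the strand of the gene (windows of GRCh38.p14, placed on hg19 by an exact match). Capitals mark GCGTG, the core bound by AHR and its partner ARNT, in CYP1A1 and CYP2S1, and TGAACT, a half-site of nuclear receptors, in the CYP3A genes. Both strands were searched.
CYP1A1: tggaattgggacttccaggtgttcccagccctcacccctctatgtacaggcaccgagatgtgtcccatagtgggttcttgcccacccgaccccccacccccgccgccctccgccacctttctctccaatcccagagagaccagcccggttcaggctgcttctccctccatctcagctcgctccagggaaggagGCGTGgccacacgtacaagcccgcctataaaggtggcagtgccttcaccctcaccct
CYP2S1: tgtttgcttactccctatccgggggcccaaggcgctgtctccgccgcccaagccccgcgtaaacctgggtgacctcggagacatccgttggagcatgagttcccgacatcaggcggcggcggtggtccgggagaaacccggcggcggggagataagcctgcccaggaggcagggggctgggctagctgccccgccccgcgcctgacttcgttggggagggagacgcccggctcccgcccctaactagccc
CYP3A4: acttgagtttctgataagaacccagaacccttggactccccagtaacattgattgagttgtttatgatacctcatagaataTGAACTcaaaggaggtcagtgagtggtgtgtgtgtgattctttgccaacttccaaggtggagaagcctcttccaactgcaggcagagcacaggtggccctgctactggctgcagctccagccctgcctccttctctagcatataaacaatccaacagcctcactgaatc
CYP3A7: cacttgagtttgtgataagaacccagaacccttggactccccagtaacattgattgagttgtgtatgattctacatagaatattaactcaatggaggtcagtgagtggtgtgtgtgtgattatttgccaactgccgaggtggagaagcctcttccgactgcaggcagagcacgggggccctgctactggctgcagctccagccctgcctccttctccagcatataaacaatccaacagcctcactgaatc
CYP3A5: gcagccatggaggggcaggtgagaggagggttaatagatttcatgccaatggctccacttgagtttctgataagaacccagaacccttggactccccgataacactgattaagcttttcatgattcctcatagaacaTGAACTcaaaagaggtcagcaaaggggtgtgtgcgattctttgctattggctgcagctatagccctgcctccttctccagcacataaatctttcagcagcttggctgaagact
On hg19 these windows are chr15:75017870-75018119 (minus strand) for CYP1A1, chr19:41698874-41699123 (plus strand) for CYP2S1, chr7:99381808-99382057 (minus) for CYP3A4, chr7:99332820-99333069 (minus) for CYP3A7 and chr7:99277620-99277869 (minus) for CYP3A5. The gene bounds used for counting reads place some starts elsewhere. By those bounds, the windows of CYP1A1, CYP2S1, CYP3A4 and CYP3A5 reach into the gene. The bounds of CYP1A1 end at 75017951, so its marked GCGTG then lies inside the gene. CYP1A1 held 1 GCGTG, starting 57 bases before the start, and CYP2S1 held 0. CYP3A4 and CYP3A5 each held 1 TGAACT, 169 and 113 bases before the start, and CYP3A7 held 0. Bases further upstream, other half-sites and inexact matches were not searched. A 0 therefore does not mean that CYP2S1 lacks an AHR site or CYP3A7 a nuclear receptor site. Of 35116 RefSeq windows of this length, 32.2% held GCGTG and 8.80% held TGAACT. The CYP3A4 and CYP3A7 windows were identical in 236 of 251 alignment columns (94.0%), with gap columns counted as differences. Counted in this way, CYP3A5 matched CYP3A4 in 163 of 309 columns (52.8%) and CYP3A7 in 160 of 307 (52.1%). Each window held 250 bases, so many columns of the CYP3A5 alignments were gaps. The CYP3A5 percentages therefore understate the match between paired bases, which was not computed. A window was found for 38 of the 54 genes.

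The libraries held 5.35 to 26.8 M exon reads, with a median of 8.89 M, and P450 genes took 0.0367% to 0.0455% of them. All 10 hepatocyte markers looked up were present, with albumin (ALB) at 3714 to 6801 RPKM (reads per kilobase of exon and per M reads in genes), so the libraries carried hepatocyte transcripts. The fibroblast genes COL1A2, DCN and LUM and the bile duct gene CFTR had 0 reads in all 15 libraries, and COL3A1 had at most 1 in a library. The other stellate or fibroblast genes looked up had reads in every library. These were ACTA2 (5.34 to 7.86 RPKM), PDGFRB (1.31 to 4.30 RPKM) and COL1A1 (0.0627 to 0.238 RPKM). The bile duct genes KRT19 (50.0 to 87.3 RPKM) and SOX9 (43.5 to 56.9 RPKM) and the myeloid gene LYZ (2077 to 2781 RPKM) were expressed, while PTPRC, which marks leukocytes, had at most 1 read in a library. The summed level of 7 leukocyte or Kupffer markers, 3 of them with at least 10 reads in a library, was 2170.9 to 2792 RPKM in DMSO and 2098 to 2507 RPKM over the exposed groups. Its part in the results was not tested.

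Of the 54 P450 genes, 25 reached 10 exon reads in at least 1 library and 29 stayed under 10 in every library, which is called below detection here. Only 16 genes had 10 reads or more in all 15 libraries. Among the 29, 10 had 0 reads everywhere and 19 had scattered reads, 266 in all against 67748 for the detected genes. With 170 M exon reads in total, a gene with 0 reads is limited to 0.0176 CPM (counts per M exon reads) at 3 reads over all libraries, and to 0.112 to 0.560 CPM in a single library. These limits cover counting error only. The members nearest to the detection limit were CYP11A1 with at most 10 reads in a library, just inside, and CYP17A1 and CYP26A1 with at most 9, just outside, followed by CYP39A1 with at most 8.

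Most of the P450 genes classed here as xenobiotic enzymes were below detection. Of the 15 genes of families 2 and 3 classed here as xenobiotic enzymes, 5 were detected (CYP2D6, CYP3A4, CYP3A5, CYP3A7 and CYP3A43). CYP2E1, which oxidizes ethanol and small solvents, had at most 2 reads in a library, CYP2B6 had at most 3, CYP2C8 had at most 2, and CYP2C19 had at most 1. CYP2A6, CYP2A7 and CYP2A13 had 0 reads in all libraries. In family 1, CYP1A1 was detected, while CYP1A2 had 2 reads and CYP1B1 had 5 over the whole series. The 14 genes of fatty acid and eicosanoid oxidation had 7 detected members, the 6 of sterol and bile acid metabolism had 3, the 6 of steroid hormone synthesis had 3, the 7 of vitamin A and D metabolism had 3, and the 3 genes without a settled substrate (CYP20A1, CYP2S1 and CYP2W1) were all detected.

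Detection also differed between clusters of neighbouring genes. Genes less than 1 Mb apart were grouped into clusters (hg19). All 4 genes of the CYP3A cluster on chromosome 7 (99245817 to 99463718) were detected, with 95 to 2554 reads over the 15 libraries. The CYP4F cluster on chromosome 19 (15619304 to 16045677) had 4 of 6 detected, namely CYP4F2, CYP4F3, CYP4F11 and CYP4F12. The cluster of CYP2A, CYP2B, CYP2F and CYP2S genes on chromosome 19 (41349443 to 41713444) had only CYP2S1 detected among 6. None of the 5 CYP4A, CYP4B, CYP4X and CYP4Z genes on chromosome 1 (47223510 to 47615413), with 0 to 1 read each, was detected.

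**Figure D1:**
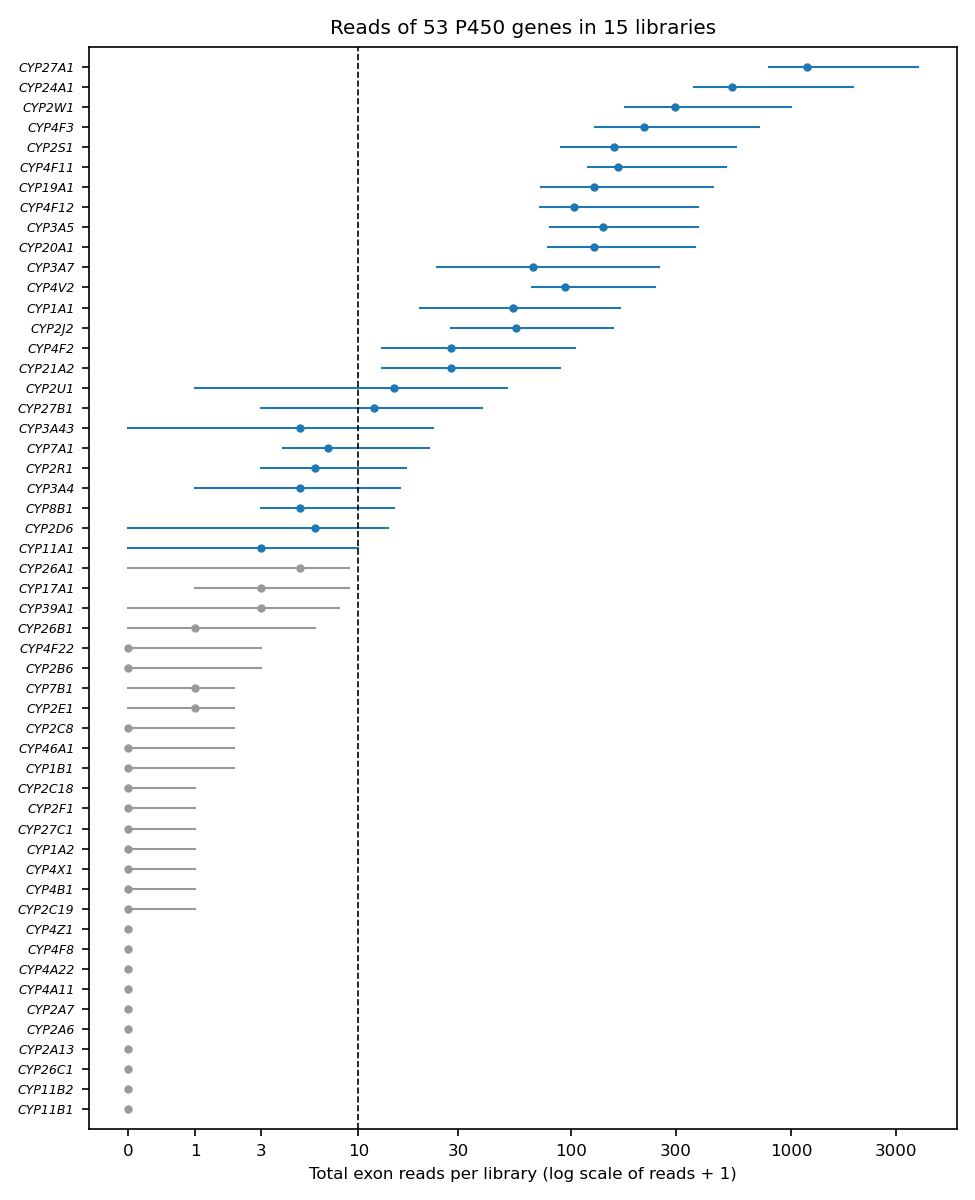
Exon reads of 53 of the 54 P450 genes on a log axis of reads + 1. Lines run from the lowest to the highest of 15 libraries, points are medians, the dashed line is at 10 reads, and blue marks the 25 genes that reached it in a library; the 28 grey genes end at 9 reads or fewer.

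Per length, a few genes carried most of the P450 signal. CYP27A1, a mitochondrial enzyme that hydroxylates cholesterol and bile acid precursors, stood at 42.2 ± 2.20 RPKM in DMSO (SD, n = 3). It lay above every other P450 gene in each of the 15 libraries (39.4 to 45.7 RPKM against at most 22.6). CYP24A1, which breaks down active vitamin D, followed at 12.4 ± 1.97 RPKM and CYP2W1, an enzyme known from fetal and tumour tissue, at 11.4 ± 1.62 RPKM. The DMSO ranges of the latter pair overlapped, but CYP24A1 was the higher within each DMSO library. The values were 11.95 against 10.53, 14.50 against 13.28 and 10.63 against 10.43 RPKM. Together these 3 genes held 59.0% ± 1.74 of P450 exon reads in DMSO, a share not corrected for length. In the exposed groups they held between 57.2% ± 1.17 and 60.1% ± 2.15 (SD, n = 3).

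A middle tier followed. CYP4F11 (4.40 ± 0.375 RPKM in DMSO), CYP20A1 (4.31 ± 0.321), CYP2S1 (4.20 ± 1.02) and CYP4F3 (4.05 ± 0.439) overlapped one another. CYP3A7, the fetal form of the subfamily, was at 2.25 ± 0.744 RPKM and CYP3A5 at 2.06 ± 0.294. Their DMSO ranges overlapped, and neither was the higher in every DMSO library. CYP3A4, the main drug-oxidizing P450 of adult liver, was far lower at 0.235 ± 0.0377 RPKM, and its 3 DMSO values lay below all 3 of either relative. CYP1A1 was at 1.70 ± 0.532 RPKM. CYP7A1, the rate-limiting enzyme of bile acid synthesis, was at 0.298 ± 0.122 RPKM and CYP8B1, which makes the cholic acid branch, at 0.111 ± 0.0283.

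Some of these counts are less certain than others. No exon read of CYP8B1 was mapped uniquely, and the unique share was 28.4% for CYP2U1, 55.2% for CYP21A2, 59.6% for CYP19A1, 62.8% for CYP2D6 and 76.7% for CYP4V2. CYP21A2 and CYP2D6 have near-identical pseudogenes. For CYP3A4, CYP3A5, CYP3A7 and CYP3A43 the unique share was 98.9%, 99.3%, 98.9% and 100%. Intron reads made up 77.9% of the gene reads of CYP2R1, 72.0% of CYP3A43, 67.3% of CYP11A1 and 43.2% of CYP3A5, against 1.73% for CYP27A1 and 5.28% for CYP1A1. The sources used here do not state whether counting used the strand, and reads of overlapping genes on the other strand cannot be told apart.

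**Figure D2:**
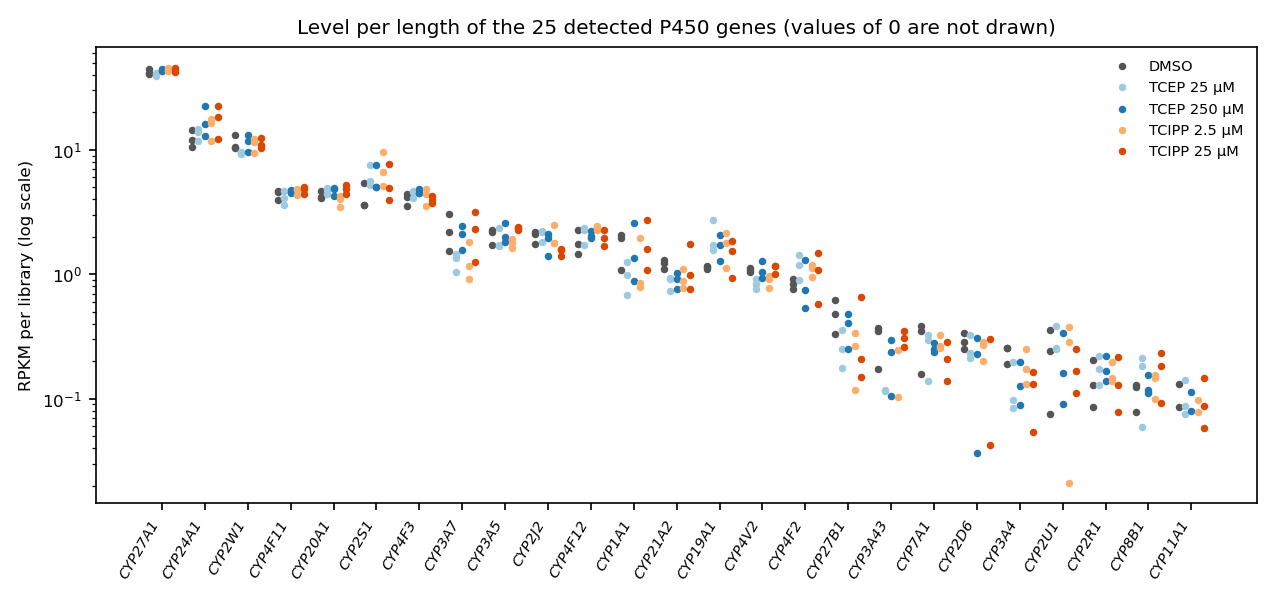
Deposited RPKM of the 25 detected P450 genes on a log axis, 1 point per library, coloured by group and ordered by the DMSO mean. CYP27A1 lies at 39.4 to 45.7 RPKM in all 15 libraries, and the genes from CYP3A43 rightwards lie below 1 RPKM.

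No P450 gene passed the test, fitted without a replicate block, in any of the 7 comparisons. The test was edgeR's quasi-likelihood test on exon reads with Benjamini-Hochberg adjustment over 12567 genes, and a gene passed at an adjusted p under 0.05. The filter on low counts kept 18 of the 54 genes. Detected but not tested were CYP2D6, CYP3A4, CYP3A43, CYP7A1, CYP8B1, CYP2R1 and CYP11A1. Few genes of any kind passed. The share was 0% of all genes for TCEP at 250 µM and 0% for TCEP at 25 µM against DMSO, 0.00796% for TCIPP at 25 µM and 0.0955% for TCIPP at 2.5 µM against DMSO. It was 0% for the step from 25 to 250 µM TCEP, 0% for the step from 2.5 to 25 µM TCIPP and 0.0398% for TCIPP against TCEP at 25 µM. Members that pass a filter through a group where they are high can differ for that reason, so counts over the 18 are a description.

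At an unadjusted p under 0.05, the counts of P450 genes can be read beside the share of all tested genes. Against DMSO they were 2 of 18 for TCEP at 250 µM (5.20% of all tested genes), 5 of 18 for TCEP at 25 µM (15.2%), 1 of 18 for TCIPP at 25 µM (6.36%) and 6 of 18 for TCIPP at 2.5 µM (13.9%). They were 3 of 18 for the TCEP step (7.16%), 4 of 18 for the TCIPP step (10.8%) and 4 of 18 for the compounds at 25 µM (18.1%). DESeq2 and limma-voom also passed 0 P450 genes in all 7 comparisons, with 1, 6, 1, 4, 2, 3 and 4 genes at an unadjusted p under 0.05 by DESeq2 and 2, 7, 1, 8, 2, 5 and 3 by limma-voom, in the same order. Of all 12567 genes, DESeq2 had 494, 1672, 605, 1481, 696, 1136 and 1970 at that threshold. By limma-voom there were 735, 2045, 858, 1938, 984, 1415 and 2349. Without the filter on low counts, edgeR tested 44 P450 genes and 1, 4, 1, 3, 0, 1 and 4 of them passed. Of all 22008 genes tested in that fit, 50, 618, 80, 553, 161, 345 and 756 passed.

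Genes whose 3 libraries all lay on 1 side of the other group's 3 were counted as well. Against DMSO there were 3 for TCEP at 250 µM (10.9% of all genes), 5 for TCEP at 25 µM (22.7%), 2 for TCIPP at 25 µM (9.08%) and 3 for TCIPP at 2.5 µM (16.8%). There were 2 for the TCEP step (15%), 4 for the TCIPP step (12.4%) and 5 for the compounds at 25 µM (20.2%). The median log2 fold change of the 18 genes lay between -0.02 and 0.16, and that of all tested genes between -0.0040 and 0.0017. The 4 comparisons with DMSO share the same control libraries.

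**Figure D3:**
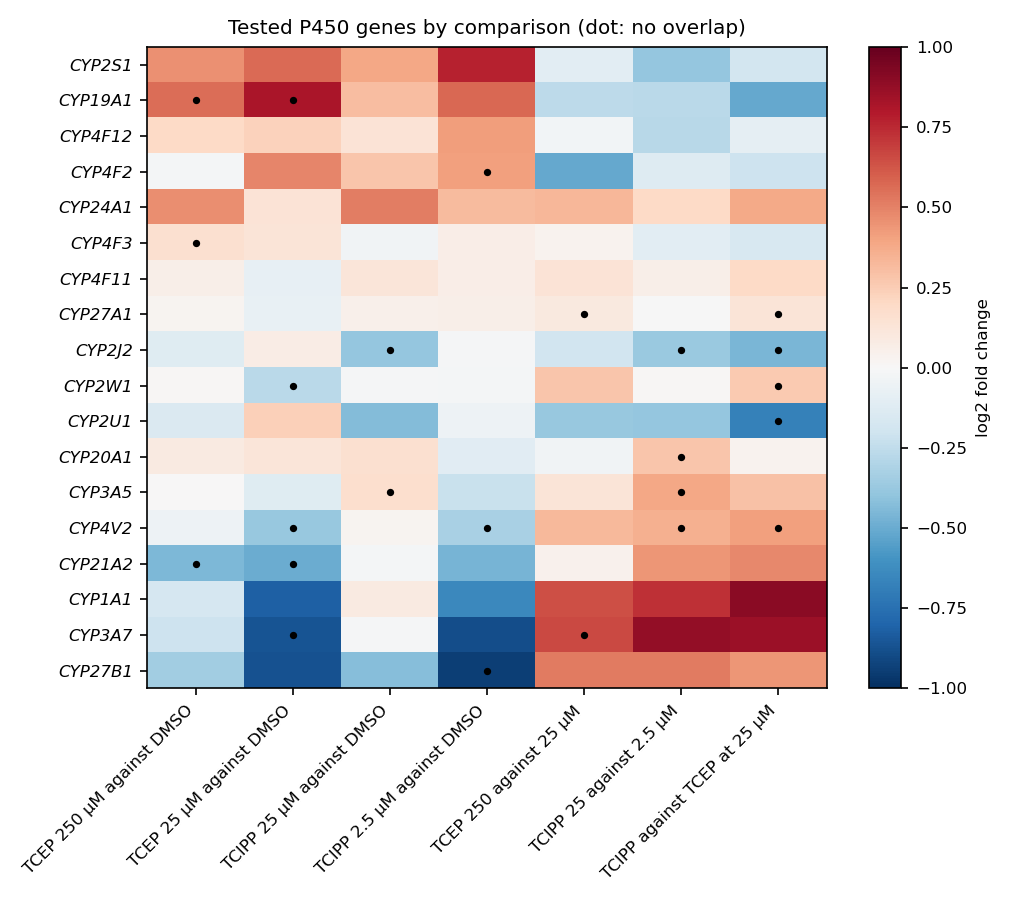
Log2 fold change (colour scale from -1 to 1) of the 18 tested P450 genes in the 7 comparisons, ordered by TCIPP at 2.5 µM against DMSO. Dots mark pairs of groups with no overlap between libraries; CYP3A7, CYP1A1 and CYP27B1 are lowest at the lower concentration of each compound, and no cell passed the test.

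Among the tested xenobiotic genes, CYP1A1, CYP3A7 and CYP3A5 had a lower mean at the lower than at the higher concentration of each compound, and none passed the test. CYP1A1, the enzyme that oxidizes polycyclic aromatic hydrocarbons and the usual readout of AHR activation, lies on chromosome 15 (75011883 to 75017951). It read 7.42, 4.09 and 7.81 CPM in DMSO, 3.71, 2.59 and 4.68 CPM at 25 µM TCEP and 9.53, 3.30 and 5.06 CPM at 250 µM TCEP, listed by replicate number. At 2.5 µM TCIPP it read 7.33, 3.01 and 3.19 CPM and at 25 µM TCIPP 10.3, 4.14 and 5.99 CPM. Every exposed group overlapped DMSO, and replicate 2 was the lowest library of each group. The log2 fold change against DMSO was -0.81 ± 0.40 (SE; edgeR adjusted p = 0.339) at 25 µM TCEP and -0.64 ± 0.40 (adjusted p = 0.513) at 2.5 µM TCIPP. At the higher concentrations it was -0.17 ± 0.38 for TCEP and 0.09 ± 0.38 for TCIPP, with 95% intervals of -0.98 to 0.63 and -0.72 to 0.90. An induction of CYP1A1 beyond 0.90 on the log2 scale is thus outside these intervals at both higher concentrations.

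CYP2S1, which like CYP1A1 is known to respond to AHR ligands, had a higher mean than DMSO in every exposed group. It read 11.5, 16.8 and 11.4 CPM in DMSO, 16.5, 24.2 and 17.8 CPM at 25 µM TCEP and 15.7, 23.6 and 15.7 CPM at 250 µM TCEP. It read 15.9, 30.6 and 20.9 CPM at 2.5 µM TCIPP and 12.5, 24.6 and 15.5 CPM at 25 µM TCIPP. Replicate 2 was the highest library of each group, and each exposed group overlapped DMSO. Within each replicate number, however, every exposed library lay above the DMSO library. The log2 fold change was 0.77 ± 0.25 (edgeR adjusted p = 0.169) at 2.5 µM TCIPP and 0.57 ± 0.25 (adjusted p = 0.296) at 25 µM TCEP. With the replicate number as a block, the edgeR adjusted p was 0.000133 and 0.00211. Of all tested genes, 7.49% and 8.25% passed those blocked comparisons. The labels do not say that equal numbers pair an exposed library with a DMSO library.

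CYP3A7, whose product is the main P450 of fetal liver, is on chromosome 7 (99302660 to 99332819) and is 1 of the 2 CYP3A genes that could be tested. It read 8.57, 5.94 and 11.7 CPM in DMSO, 5.62, 4.05 and 5.22 CPM at 25 µM TCEP and 9.39, 6.002 and 8.09 CPM at 250 µM TCEP. It read 7.05, 3.62 and 4.45 CPM at 2.5 µM TCIPP and 12.3, 4.89 and 8.98 CPM at 25 µM TCIPP. The 3 libraries at 25 µM TCEP lay below all of DMSO and all of 250 µM TCEP, while both TCIPP groups overlapped DMSO. The log2 fold change against DMSO was -0.86 ± 0.29 (edgeR adjusted p = 0.184) at 25 µM TCEP and -0.89 ± 0.30 (adjusted p = 0.170) at 2.5 µM TCIPP. With the replicate number as a block, the edgeR adjusted p was 0.00872 and 0.00563. Of all tested genes, 8.25% and 7.49% passed those blocked comparisons. At the higher concentrations it was -0.21 ± 0.28 for TCEP and -0.01 ± 0.28 for TCIPP.

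Between the concentrations of a compound, CYP3A7 was 0.66 ± 0.30 higher on the log2 scale at 250 than at 25 µM TCEP (edgeR adjusted p = 0.680) and 0.88 ± 0.31 higher at 25 than at 2.5 µM TCIPP (adjusted p = 0.311). Libraries of the same replicate number deviated together in the comparisons between exposed groups, so a fit with the replicate number as a block is given here. In it, CYP3A7 passed in the TCIPP step (0.88 ± 0.20, adjusted p = 0.0235) and did not in the TCEP step (0.65 ± 0.20, adjusted p = 0.133). CYP2S1 also passed in the blocked TCIPP step, lower at 25 µM (-0.38 ± 0.10, adjusted p = 0.0472). Of all genes, 3.85% passed that blocked comparison and 1.47% the blocked TCEP step, in which 0 P450 genes passed. With replicate 1, 2 or 3 left out of the blocked fit, 0 P450 genes passed in the TCIPP step.

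CYP3A5, the other tested gene of the cluster, which lies on chromosome 7 (99245817 to 99277621), read 16.4, 12.6 and 16.7 CPM in DMSO, 17.3, 12.8 and 12.4 CPM at 25 µM TCEP and 18.8, 13.2 and 14.6 CPM at 250 µM TCEP. At 2.5 µM TCIPP it read 13.1, 12.1 and 14.0 CPM and at 25 µM TCIPP 16.8, 17.5 and 17.6 CPM. The 25 µM TCIPP libraries lay above all of DMSO and all of 2.5 µM TCIPP, with log2 fold changes of 0.17 ± 0.15 (edgeR adjusted p = 0.932) and 0.39 ± 0.15 (adjusted p = 0.373). CYP3A4 had 7, 7 and 14 raw exon reads in DMSO, 3, 3 and 10 at 25 µM TCEP, 5, 2 and 9 at 250 µM TCEP, 6, 3 and 16 at 2.5 µM TCIPP and 5, 1 and 4 at 25 µM TCIPP. Its CPM at 25 µM TCIPP (0.188 to 0.565) lay below those of DMSO (0.655 to 0.896). CYP3A43, with 0 to 23 reads, lay at 0 to 0.339 CPM at 25 µM TCEP against 0.495 to 1.08 CPM in DMSO, also without overlap. Both genes were too low for the test. CYP2D6, which oxidizes many basic drugs, had 0 to 14 reads. Summed over the 15 genes of families 2 and 3 classed as xenobiotic enzymes, the level was 5.17 ± 1.07 RPKM in DMSO, 3.71 ± 0.531 at 25 µM TCEP, 4.77 ± 1.00 at 250 µM TCEP, 3.69 ± 0.732 at 2.5 µM TCIPP and 5.16 ± 1.20 at 25 µM TCIPP (SD, n = 3), with overlap between each exposed group and DMSO.

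Of the 4 detected fatty acid oxidizers of the CYP4F cluster, CYP4F11 and CYP4F3 differed little between groups. CYP4F11 read 20.9, 20.1 and 17.5 CPM in DMSO, 15.8, 18.2 and 20.5 at 25 µM TCEP, 19.99, 20.7 and 19.8 at 250 µM TCEP, 21.3, 21.1 and 18.9 at 2.5 µM TCIPP and 19.7, 22.4 and 21.2 at 25 µM TCIPP. CYP4F3, which inactivates leukotriene B4, read 21.9, 26.5 and 25.4 CPM in DMSO, 24.7, 28.7 and 27.5 at 25 µM TCEP, 26.8, 29.1 and 27.1 at 250 µM TCEP, 21.4, 29.5 and 26.6 at 2.5 µM TCIPP and 25.7, 24.3 and 22.4 at 25 µM TCIPP. Their log2 fold changes against DMSO lay between -0.08 and 0.12 for CYP4F11 and between -0.03 and 0.16 for CYP4F3, and only CYP4F3 at 250 µM TCEP had no overlap with DMSO. CYP4F12 read 10.4, 13.2 and 8.51 CPM in DMSO, 13.2, 13.8 and 9.97 at 25 µM TCEP, 11.3, 13.1 and 11.8 at 250 µM TCEP, 13.2, 14.3 and 14.1 at 2.5 µM TCIPP and 9.95, 13.5 and 11.4 at 25 µM TCIPP. Its log2 fold change at 2.5 µM TCIPP was 0.42 ± 0.16 (edgeR adjusted p = 0.255), with the lowest exposed library level with the highest of DMSO. CYP4F2, which oxidizes vitamin K and fatty acids, was at 2.77 ± 0.226 CPM in DMSO and 3.58 ± 0.414 CPM at 2.5 µM TCIPP (SD, n = 3), where its libraries did not overlap. It was at 3.85 ± 0.885 CPM at 25 µM TCEP, with overlap (0.49 ± 0.30 on the log2 scale, edgeR adjusted p = 0.468).

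CYP4V2, a fatty acid hydroxylase whose loss causes a retinal dystrophy, also had a lower mean at the lower concentration of each compound. It read 12.3, 11.6 and 11.3 CPM in DMSO, 8.19, 9.89 and 9.02 at 25 µM TCEP and 11.1, 13.5 and 9.89 at 250 µM TCEP. It read 10.4, 9.95 and 8.35 CPM at 2.5 µM TCIPP and 10.96, 12.6 and 12.4 at 25 µM TCIPP. Both lower concentrations lay wholly below DMSO, with log2 fold changes of -0.38 ± 0.13 (edgeR adjusted p = 0.201) for TCEP and -0.32 ± 0.14 (adjusted p = 0.294) for TCIPP. CYP2J2, which forms epoxides of arachidonic acid, read 7.29, 6.93 and 5.71 CPM in DMSO, 5.90, 7.42 and 7.19 at 25 µM TCEP, 4.56, 6.90 and 6.34 at 250 µM TCEP, 5.78, 8.29 and 5.79 at 2.5 µM TCIPP and 5.20, 5.27 and 4.55 at 25 µM TCIPP. It was lowest at 25 µM TCIPP, below all of DMSO (-0.39 ± 0.20, adjusted p = 0.805).

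The sterol gene CYP27A1, on chromosome 2 (219646472 to 219680016), was the most abundant member. It read 137, 145 and 133 CPM in DMSO, 135, 130 and 129 at 25 µM TCEP, 144, 141 and 138 at 250 µM TCEP, 143, 151 and 139 at 2.5 µM TCIPP and 140, 149 and 142 at 25 µM TCIPP. The 95% intervals of its log2 fold change against DMSO ran from -0.10 to 0.15 at 250 µM TCEP, -0.20 to 0.05 at 25 µM TCEP, -0.08 to 0.18 at 25 µM TCIPP and -0.07 to 0.18 at 2.5 µM TCIPP. CYP7A1 had 9, 10 and 11 raw reads in DMSO, 11, 4 and 14 at 25 µM TCEP, 6, 6 and 16 at 250 µM TCEP, 6, 7 and 22 at 2.5 µM TCIPP and 6, 5 and 4 at 25 µM TCIPP. CYP8B1 had 3 to 15 reads in a library.

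Of the steroid hormone genes, CYP19A1 encodes aromatase, which makes oestrogens from androgens. It lies on chromosome 15 (51500254 to 51630807). It read 10.7, 10.6 and 10.2 CPM in DMSO, 14.4, 25.7 and 16.0 at 25 µM TCEP, 11.7, 18.9 and 15.8 at 250 µM TCEP, 10.3, 20.04 and 16.4 at 2.5 µM TCIPP and 8.70, 17.1 and 14.1 at 25 µM TCIPP. DMSO was far tighter than any exposed group, and both TCEP groups lay wholly above it. The log2 fold change was 0.82 ± 0.25 (edgeR adjusted p = 0.169) at 25 µM TCEP, 0.56 ± 0.26 (adjusted p = 0.955) at 250 µM TCEP, 0.58 ± 0.26 (adjusted p = 0.335) at 2.5 µM TCIPP and 0.31 ± 0.27 (adjusted p = 0.932) at 25 µM TCIPP. CYP21A2, a steroid hydroxylase of cortisol synthesis, was at 3.87 ± 0.359 CPM in DMSO and lower without overlap at 25 µM TCEP (2.74 ± 0.331 CPM) and 250 µM TCEP (2.84 ± 0.412 CPM), with adjusted p = 0.363 and 0.987 (SD, n = 3). CYP17A1, which makes androgen precursors, had 1 to 9 reads.

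The vitamin D gene CYP24A1, on chromosome 20 (52769988 to 52790512), read 52.8, 62.8 and 46.4 CPM in DMSO, 51.2, 65.1 and 60.1 at 25 µM TCEP and 56.0, 97.4 and 69.7 at 250 µM TCEP. It read 51.0, 78.1 and 70.6 CPM at 2.5 µM TCIPP and 53.7, 98.7 and 79.5 at 25 µM TCIPP. The means were higher at the higher concentrations, and replicate 1 stayed within the DMSO range in every TCEP and TCIPP group. The log2 fold change was 0.47 ± 0.21 (edgeR adjusted p = 0.955) at 250 µM TCEP and 0.52 ± 0.21 (adjusted p = 0.710) at 25 µM TCIPP. CYP27B1, which makes active vitamin D, was at 1.82 ± 0.536 CPM in DMSO and 0.907 ± 0.416 CPM at 2.5 µM TCIPP (SD, n = 3), without overlap (-0.94 ± 0.44, adjusted p = 0.353). CYP26A1, which clears retinoic acid, had 0 to 9 reads.

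Of the genes without a settled substrate, CYP2W1 read 32.5, 40.1 and 31.8 CPM in DMSO, 28.5, 28.6 and 29.02 at 25 µM TCEP, 39.7, 28.7 and 35.7 at 250 µM TCEP, 35.1, 28.9 and 37.1 at 2.5 µM TCIPP and 31.5, 33.3 and 37.9 at 25 µM TCIPP. The 25 µM TCEP libraries were nearly equal and lay below all of DMSO (-0.27 ± 0.12, edgeR adjusted p = 0.304). CYP20A1 read 13.6, 14.9 and 13.1 CPM in DMSO, 15.6, 15.4 and 14.0 at 25 µM TCEP, 15.6, 15.3 and 13.5 at 250 µM TCEP, 10.99, 13.0 and 13.5 at 2.5 µM TCIPP and 15.5, 16.7 and 14.1 at 25 µM TCIPP. It was higher without overlap at 25 than at 2.5 µM TCIPP (0.27 ± 0.12, adjusted p = 0.401).

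Replicate number left a mark on several of these genes. Replicate 2 was the lowest library in all 5 groups for CYP1A1 and CYP3A7, which 3.29% of all tested genes showed. It was the highest in all 5 groups for CYP24A1, CYP2S1 and CYP4F12, which 3.69% of all tested genes showed. The sources used here do not state what the replicate numbers stand for.

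**Figure D4:**
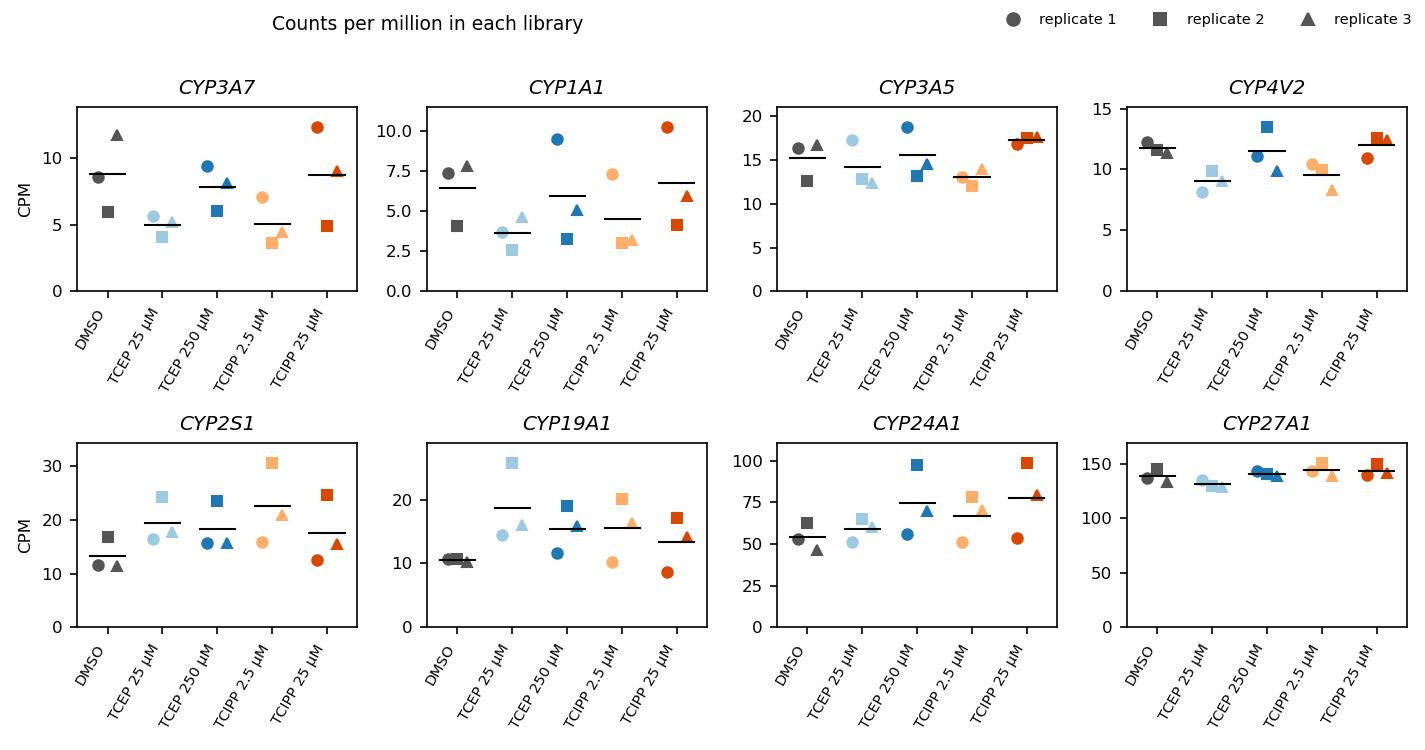
CPM of 8 P450 genes in each library (y axes start at 0). Bars are group means, colours are groups and shapes are replicate numbers; squares (replicate 2) are the lowest points in every group for CYP3A7 and CYP1A1 and the highest for CYP2S1 and CYP24A1.

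TCIPP and TCEP could be compared directly at 25 µM, where 0 of 18 P450 genes passed. CYP4V2 had the smallest p, at 11.99 ± 0.895 CPM with TCIPP against 9.03 ± 0.853 CPM with TCEP (SD, n = 3), without overlap (0.41 ± 0.14 on the log2 scale, edgeR adjusted p = 0.147). CYP3A7 was 0.85 ± 0.30 higher with TCIPP (95% interval 0.21 to 1.49, adjusted p = 0.158) and CYP1A1 0.90 ± 0.41 higher (0.04 to 1.77, adjusted p = 0.256), and both overlapped. CYP2J2 was lower with TCIPP (-0.46 ± 0.19, adjusted p = 0.228), without overlap, and so was CYP2U1 (-0.67 ± 0.60, adjusted p = 0.580). CYP27A1 and CYP2W1 were higher without overlap (0.13 ± 0.06 and 0.26 ± 0.12).

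In the fit with the replicate block, which 8.75% of all genes passed, CYP3A7 was the only P450 gene to pass at 25 µM, higher with TCIPP (0.82 ± 0.20, adjusted p = 0.0195). It passed also without replicate 2 (adjusted p = 0.0359) but not without replicate 1 or replicate 3, and CYP1A1 passed only without replicate 3 (adjusted p = 0.0356). The intervals left room for differences of some size in either direction for other members, such as -0.73 to 0.36 for CYP2S1 and -0.06 to 0.83 for CYP24A1. For CYP20A1 the interval was -0.20 to 0.27, so a larger difference between the methylated and the unmethylated compound lies outside it.

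**Figure D5:**
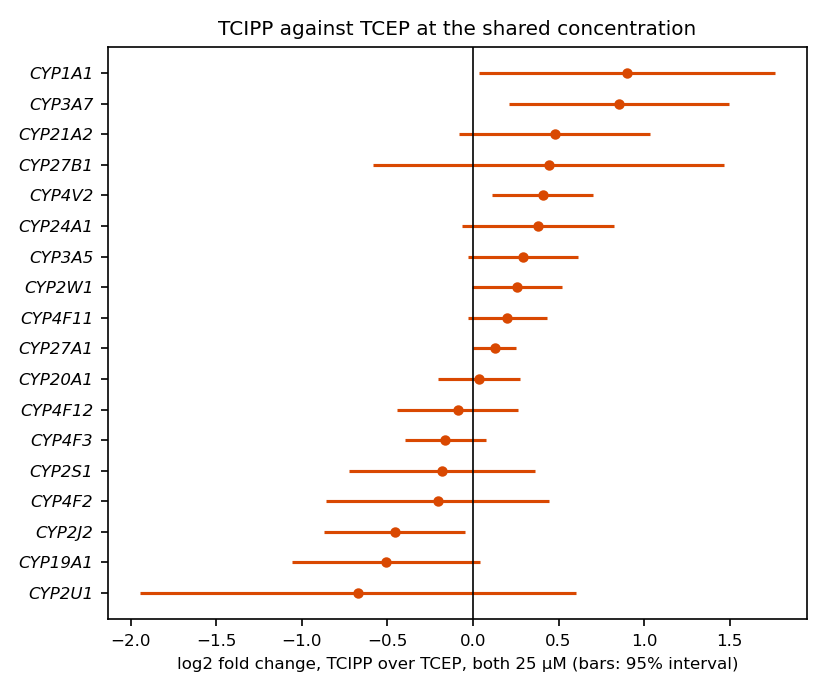
Log2 fold change of TCIPP over TCEP, both at 25 µM, for the 18 tested P450 genes, with 95% intervals from the edgeR fit. CYP1A1 (0.90) and CYP3A7 (0.85) lie highest and CYP2U1 (-0.67) lowest, and no gene passed after adjustment.

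Partners and regulators of the P450s were read from lists chosen for their function. Of 9 electron donors, all tested, 1 passed in 1 comparison. CYB5A, cytochrome b5, which passes electrons to several P450s, was higher with TCIPP than with TCEP at 25 µM. It stood at 95.1, 82.4 and 93.7 CPM with TCIPP against 69.1, 69.1 and 66.8 CPM with TCEP, without overlap (0.41 ± 0.07, edgeR adjusted p = 0.0462). The adjusted p was 0.0549 with library totals and 0.176 with only the groups compared. It ranged from 0.0232 to 0.250 when 1 library was left out and passed only without TCIPP replicate 2. POR, the reductase that serves most microsomal P450s, read 218 to 280 CPM over the 15 libraries, and 0 of the 9 donors passed against DMSO.

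Of the 8 heme synthesis genes, 0 passed in any comparison, and the smallest edgeR adjusted p was 0.169, for ALAS1, the rate-limiting enzyme of the pathway, in TCIPP against TCEP at 25 µM. Of 22 transcriptional regulators, 18 were tested and 0 passed. AHR was expressed at 95.2 to 127 CPM and NR1I2 at 8.48 to 17.8 CPM, while NR1I3 reached only 0.452 to 1.69 CPM. NR1H4, the bile acid receptor FXR, had a lower mean at the lower concentration of each compound. It was at 46.5 ± 8.23 CPM in DMSO, 34.1 ± 5.40 at 25 µM TCEP, 51.4 ± 8.28 at 250 µM TCEP, 32.3 ± 6.81 at 2.5 µM TCIPP and 54.7 ± 7.999 at 25 µM TCIPP (SD, n = 3). Its smallest adjusted p was 0.0827, for TCIPP against TCEP at 25 µM, where NR0B2, a repressor that FXR induces, had an adjusted p of 0.0988.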

How the data were processed

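RNA of 15 HepG2 libraries was analysed, 3 in each of 5 groups. Per the series' design text, the authors mapped and annotated the reads with CLC Genomics Workbench (no version stated in the sources used here). The submitters' processing notes name hg19 and GRCh37 as the build. The deposited tables, per the file headers, hold whole-number read counts per gene (total and unique exon reads, total gene reads, intron reads) and RPKM. Recomputing the deposited RPKM from exon reads, exon length and total gene reads matched all 250284 values within a relative tolerance of 0.0001. The authors' quantile-normalized values were not used here.

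Total exon reads of all 15 libraries were fitted together in edgeR 4.0.16 (R 4.3.3) with TMM scaling, filterByExpr and the quasi-likelihood test, with no replicate block. CPM (counts per M reads) use the TMM-scaled library size. RPKM served to compare levels between genes. The code was tested on simulated counts. Promoters were aligned with Biopython 1.88.

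Same-numbered libraries deviated together in the 3 comparisons between exposed groups (correlations 0.177 to 0.297 over genes), where the numbers were taken to pair them. Against DMSO the correlations were 0.0164 to 0.158, and not every pair exceeded 0.1. The DMSO library of the same number was the best match for every library at 2.5 µM TCIPP (0.104, 0.0891 and 0.152). In each other exposed group at least 1 library matched another number better. Shared deviations with DMSO are thus not excluded. The pairing comes from this check, since the labels do not say what a number shares.

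DESeq2 1.42.0, limma-voom (limma 3.58.1), other scalings, filters and counts, the block and leaving out libraries were tried as alternatives. Genes named are the tested members with a mean of at least 5 CPM, up to 4 members with the smallest p in each comparison, a set of well-known P450 genes, and up to 3 genes per partner list and comparison with the smallest p. AHR, NR1I2, NR1I3, POR, CYP27B1 and CYP2U1 fall in part outside this rule. The P450 genes and the lists were chosen with earlier results of these data known. 1 P450 gene is counted in the totals but not reported here by name.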

Additional observations from a re-analysis of the deposited data

How the results depend on the processing

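The replicate block changed the count of P450 genes that passed. Against DMSO, the numbers were not taken to pair the libraries. There 4 passed for 25 µM TCEP, 4 for 2.5 µM TCIPP and 0 at the higher concentrations. At 25 µM TCEP, CYP19A1 (edgeR adjusted p = 0.00291) and CYP2S1 (0.00211) were higher, and CYP1A1 (0.0456) and CYP3A7 (0.00872) lower. At 2.5 µM TCIPP, CYP19A1 (edgeR adjusted p = 0.0285), CYP2S1 (0.000133) and CYP4F12 (0.0454) were higher and CYP3A7 (0.00563) lower. In the other 3 comparisons the block gave 0 for the TCEP step, 2 for the TCIPP step and 1 at 25 µM, and 0 to 1 with 1 replicate number left out. Over all genes the block gave 34, 1037, 47, 941, 185, 484 and 1100 calls, in the order 250 µM TCEP, 25 µM TCEP, 25 µM TCIPP and 2.5 µM TCIPP against DMSO, TCEP step, TCIPP step and the compounds at 25 µM, against 0, 0, 1, 12, 0, 0 and 5 without it. Against DMSO these blocked counts are 0.271%, 8.25%, 0.374% and 7.49% of all tested genes. The block without replicate 1, 2 or 3 gave 16, 7 and 47 for the TCEP step, 130, 219 and 78 for the TCIPP step and 80, 835 and 506 at 25 µM.

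Without the low-count filter, 1, 4, 1, 3, 0, 1 and 4 P450 genes and 50, 618, 80, 553, 161, 345 and 756 of all 22008 genes then tested passed. DESeq2 passed 14, 138, 30, 237, 14, 62 and 334 of all genes and 0 P450 genes. Other settings moved the counts over all genes only. At 250 µM TCEP, total gene reads gave 1. At 25 µM TCEP, limma-voom gave 4, unique exon reads 2 and only the groups compared 135. At 25 µM TCIPP, library totals and only the groups compared gave 0. At 2.5 µM TCIPP, library totals gave 35, limma-voom 104, a mean of at least 1 CPM 23, only the groups compared 23, total gene reads 0 and unique exon reads 122. For the compounds at 25 µM, library totals gave 2, a mean of at least 1 CPM 8, only the groups compared 0 and total gene reads 13. With 1 library left out, all-gene counts ranged from 0 to 1, 0 to 29, 0 to 5, 0 to 307 and 0 to 208 against DMSO and at 25 µM, were 0 in both steps, and 0 P450 genes passed in each. On total gene reads scaled by library totals, the P450 genes without overlap numbered 0 for 25 µM TCIPP against DMSO and 2 for the TCIPP step. On exon reads they numbered 2 and 4, both with TMM scaling and with library totals. The share over all genes was not computed for these alternatives, so the counts are a description. The cause of these shifts was not tested. Of 2169 single-gene values under alternatives, 103 had the opposite sign, 0 of them past the threshold. The count of detected P450 genes, 25 in the main setting, was 22 on unique exon reads and 28 on total gene reads. It was 29 at a minimum of 5 reads, 20 at a minimum of 20, and 24 or 25 with 1 library left out. With 3 libraries a group and 10 reads or fewer for many members, depth limits what could be seen for CYP3A4, CYP2D6, CYP7A1 and the 29 genes below detection.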
